A study of Homo sapiens with 4 samples.

Results

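To describe how CENPT and the other genes of the inner kinetochore were transcribed when PRCC-TFE3 was induced, 10 genes were followed: CENPT, its histone-fold partners CENPW, CENPS and CENPX, and CENPC, CENPH, CENPI, CENPK, CENPN and CENPM. They were taken by name from the 33886 gene symbols obtained by summing the deposited estimated counts over Ensembl transcripts, and CENPT was read by each of its 34 transcripts as well. CENPT was chosen by its count and fold change between the same libraries that are described here, while its partners were taken for their place in the complex. Its levels, its fold change and its transcripts are therefore given as a description, with no test, and the tests concern its partners and other genes.

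RNA with poly(A) tails was sequenced from HK-2 cells, an immortalised line derived from human renal proximal tubule, that carry HA-tagged PRCC-TFE3 under a Tet-On promoter. PRCC-TFE3 is a fusion protein of translocation renal cell carcinoma that joins part of PRCC to the transcription factor TFE3. Doxy(-) cells were kept for 24 h without doxycycline and Doxy(+) cells for 24 h with 0.2 microg/ml doxycycline, and each group had 2 libraries, numbered 1 and 2. The transgene is present in both groups, and nothing in the labels tells whether the cells are 1 clone or the libraries separate cultures, so p-values measure the spread between these libraries, which may be technical. HK-2 cells without the transgene were not analysed here, so effects of doxycycline and of PRCC-TFE3 cannot be told apart.

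The kinetochore is the protein assembly that attaches a chromosome to spindle microtubules. Its inner part, the constitutive centromere-associated network, sits on nucleosomes that hold the histone variant CENP-A, and its outer part, built from the KNL1, Mis12 and Ndc80 complexes, binds the microtubule. CENP-T and CENP-C are the long, flexible subunits that span the distance: CENP-T joins CENP-W, and with CENP-S and CENP-X it forms a histone-fold particle that contacts DNA, while its other end recruits the Ndc80 complex.

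The deposited estimated counts summed to between 14042545 and 16618401 reads per library. TFE3, which receives reads of the transgene as well as of the native gene, was at 66.9 and 69.1 counts per 1000000 reads (CPM) in Doxy(-) 1 and 2 and 367 and 322 CPM in Doxy(+) 1 and 2, in the direction of the labels. PRCC was at 50.2 and 47.2 CPM against 47.7 and 60.1 CPM. Of 5 epithelial markers, 4 reached 1 TPM (transcripts per 1000000) in some library, the exception being CDH1. Of 8 proximal tubule markers, only GGT1 and SLC5A2 did, while LRP2, CUBN, SLC34A1, SLC22A6, AQP1 and ANPEP stayed under 1 TPM in every library, so most markers that define the labelled cell type were near 0. Of markers of other cell types, 1 of 5 for blood (CD68), 1 of 4 for endothelium (PECAM1, at most 1.10 TPM) and 3 of 5 for fibroblasts (COL1A1, DCN and LUM) reached 1 TPM, while CD3E, HBB, CDH5 and KDR were at 0 in every library. Some markers differed between groups. CD68 was at 173 and 187 TPM in Doxy(-) against 236 and 237 TPM in Doxy(+), and LUM at 199 and 222 TPM against 242 and 245 TPM. Another fibroblast marker, COL1A1, went the other way, from 13.4 and 10.9 TPM to 9.77 and 7.41 TPM, and DCN overlapped between groups. GGT1 was at 93.1 and 96.3 TPM against 115 and 117 TPM, while SLC34A1 was lower in Doxy(+), at 0.671 and 0.624 TPM against 0.158 and 0.272 TPM. In the sums that follow, LUM made up most of the fibroblast level, CD68 of the blood level and GGT1 of the proximal tubule level. Summed levels were 1465 and 1441 TPM against 1205 and 1204 TPM for the epithelial markers, 219 and 236 TPM against 257 and 256 TPM for the fibroblast markers, 174 and 188 TPM against 237 TPM in each library for blood, 1.14 and 0.785 TPM against 0.795 and 0.859 TPM for endothelium, and 97.3 and 99.7 TPM against 119 and 120.04 TPM for proximal tubule. Their part in the results below was not tested.

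First, the levels of CENPT were examined. CENPT (ENSG00000102901.13) lies on the minus strand of chromosome 16, at chr16:67828157-67847811 in hg38. Its estimated count was 431 in Doxy(-) 1 and 481 in Doxy(-) 2, against 2672 in Doxy(+) 1 and 2482 in Doxy(+) 2. Both Doxy(+) libraries stood far above both Doxy(-) libraries. Scaled to library size, CENPT reached 33.1 ± 0.498 CPM in Doxy(-), against 196 ± 16.02 CPM in Doxy(+) (SD, n = 2), a 5.93-fold difference with a log2 fold change of 2.57 (SE 0.0714). Among 9608 genes whose mean was 10 CPM or more, this was rank 4 by log2 fold change, and among all 13542 genes tested it was rank 32. CENPT met both limits used for calling a gene, an edgeR adjusted p under 0.05 and a log2 fold change over 1 in size, as did 1.97% of the 13542 genes tested (1.5% higher and 0.473% lower in Doxy(+)). Because the gene was chosen for this contrast, nothing is read from that. With bulk RNA, more cells that express a gene and more RNA per cell cannot be told apart.

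**Figure D1:**
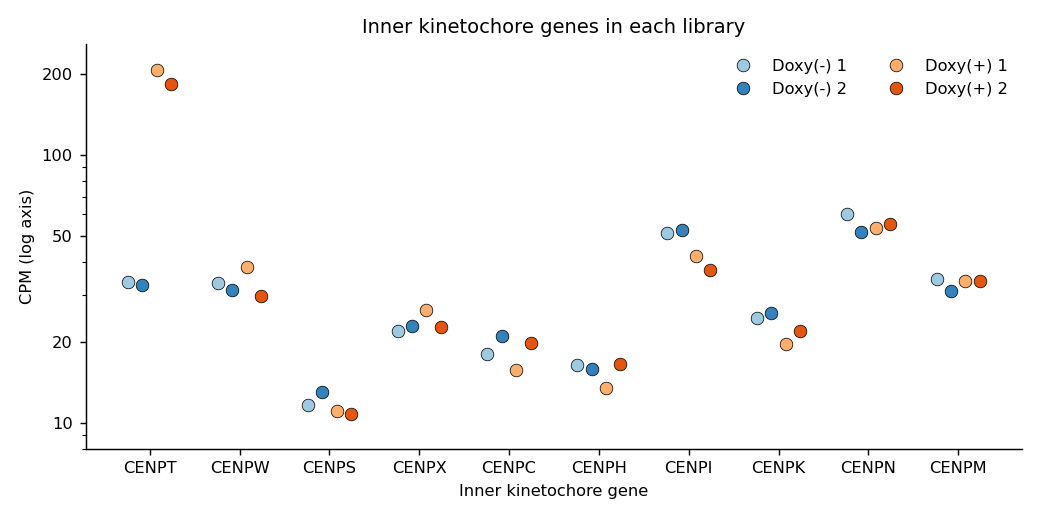
Each point is 1 library; the vertical axis gives the CPM of each inner kinetochore gene on a log scale, and the horizontal axis the 10 genes. CENPT stands at about 33 CPM in Doxy(-), against 185 and 208 CPM in Doxy(+), while the 4 points of each of the 9 partners lie close together.

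Next, the sequence around the annotated starts of CENPT was read, since its transcripts begin at several places. TFE3 binds DNA at E-box motifs with the letters CACGTG or CATGTG, so both were searched on both strands, in each case together with the longer palindrome TCACGTGA, which contains CACGTG. The RefSeq promoter of CENPT (GRCh38.p14, minus strand, chr16:67847644-67847943, 250 bases before to 50 after the start) is shown because it is also the start of CENPT-208, the reference transcript. The bases before CENPT-220 (hg38, minus strand, chr16:67841951-67842150) are shown because this start carried one of the larger relative differences given below. The RefSeq promoter of CENPS (GRCh38.p14, plus strand, chr1:10430183-10430482) is shown for contrast, with its match in capitals.
CENPT promoter: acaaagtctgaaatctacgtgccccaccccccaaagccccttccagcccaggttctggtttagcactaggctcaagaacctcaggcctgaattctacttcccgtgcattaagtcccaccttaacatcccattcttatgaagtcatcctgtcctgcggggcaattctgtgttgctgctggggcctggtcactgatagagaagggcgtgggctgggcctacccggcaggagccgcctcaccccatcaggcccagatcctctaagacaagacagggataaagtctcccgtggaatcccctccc
Before CENPT-220: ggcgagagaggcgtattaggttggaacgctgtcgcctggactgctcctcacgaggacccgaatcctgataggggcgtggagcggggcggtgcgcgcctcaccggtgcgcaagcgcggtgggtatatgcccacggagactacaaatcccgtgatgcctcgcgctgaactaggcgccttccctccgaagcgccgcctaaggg
CENPS promoter: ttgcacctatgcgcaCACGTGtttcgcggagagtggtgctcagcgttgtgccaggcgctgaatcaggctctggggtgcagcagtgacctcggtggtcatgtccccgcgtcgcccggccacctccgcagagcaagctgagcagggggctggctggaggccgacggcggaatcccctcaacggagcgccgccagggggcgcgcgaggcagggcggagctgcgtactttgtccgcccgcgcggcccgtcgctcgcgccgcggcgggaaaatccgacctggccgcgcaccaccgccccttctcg

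None of the 3 motifs was present in the 300 bases around the starts of CENPT-208, CENPT-217, CENPT-220, CENPT-233 or CENPT-218, which says only that these letters are not in those windows. Among the 35116 RefSeq promoters of the same length, 7.26% held CACGTG, 11.1% CATGTG and 0.98% TCACGTGA. Of the 10 genes, 8 had a promoter in that table, CENPH and CENPM having none. CENPS held 1 CACGTG, at position -235 from its start, and CENPC held 1 CATGTG, at position -104, and the other 6 held neither. A match is a description of letters and not of binding.

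The transcripts of CENPT were then examined one by one, as the quantifier divided the reads between them. This division is uncertain: 24 of the 34 transcripts have no exon base of their own, and of the 15 transcripts with a mean of at least 10 counts, 8 differed by over 2-fold between the libraries of a group. In 11 of these 15, both Doxy(+) counts lay above both Doxy(-) counts. The groups overlapped in the other 4, and none was lower in Doxy(+). CENPT was chosen for this difference, and a transcript can meet the limit of 10 counts through Doxy(+) alone. The share over all transcripts was not computed, so nothing is read from these numbers.

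**Figure D2:**
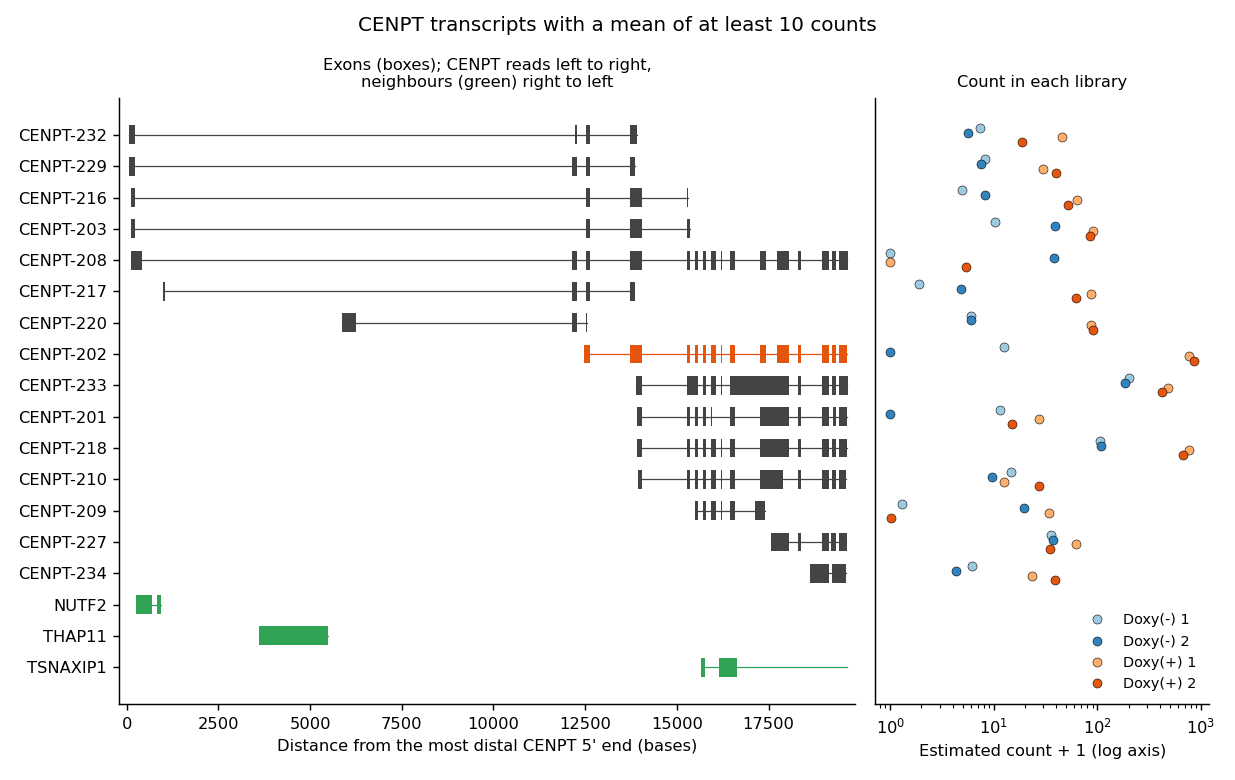
On the left, the exons of the 15 CENPT transcripts with a mean of at least 10 counts are drawn as boxes against the distance in bases from the most distal annotated start, with the exons of NUTF2, THAP11 and TSNAXIP1 within that range in green and CENPT-202 in orange. On the right, the estimated count plus 1 of each transcript is given on a log axis, 1 point per library, and CENPT-202 shows the widest gap between Doxy(-) and Doxy(+).

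CENPT-202, which holds the full coding sequence of 1683 bases, was assigned 11.7 and 0 counts in Doxy(-) 1 and 2 and 767 and 856 counts in Doxy(+) 1 and 2. Its first exon, at chr16:67835172-67835338, reaches 38 bases further upstream than the corresponding exon of other transcripts, and those 38 bases are the only ones in the annotation that belong to CENPT-202 alone. A count of 0 allows up to 3 counts, by counting error only. CENPT-208, the MANE Select transcript with the same coding length and a start at position 67847693, was assigned 0 and 36.7 counts in Doxy(-) and 0 and 4.38 counts in Doxy(+). The groups overlapped for CENPT-208. Together these 2 transcripts had 11.7 and 36.7 counts in Doxy(-) and 767 and 860 counts in Doxy(+), the latter assigned almost wholly to CENPT-202. Shorter annotated transcripts that begin at or beside the CENPT-208 start also took reads. CENPT-203 was assigned 9.20 and 37.8 counts in Doxy(-) against 90.5 and 83.3 in Doxy(+), and CENPT-216 3.97 and 7.21 against 62.3 and 50.5. Whether such reads came from full-length RNA cannot be told from this division.

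CENPT-218 and CENPT-233, both annotated as transcripts with a retained intron, held most of the CENPT count in Doxy(-). CENPT-218 was assigned 105 and 108 counts in Doxy(-) and 763 and 665 counts in Doxy(+). CENPT-233 was assigned 203 and 184 counts in Doxy(-) and 476 and 416 counts in Doxy(+), the smaller relative difference of the pair. All 9 transcripts of the retained-intron class summed to 371 and 351 counts in Doxy(-) and to 1388 and 1206 counts in Doxy(+), and the 7 of the protein-coding class to 24.8 and 81.8 against 936 and 1010 counts. Both classes were higher in both Doxy(+) libraries, but their shares of the CENPT count moved in opposite directions. The retained-intron class held 86.1% and 73.0% of it in Doxy(-) and 52.0% and 48.6% in Doxy(+), and the protein-coding class 5.76% and 17.01% against 35.0% and 40.7%. These shares rest on the quantifier's division of reads, whose error is not known, so no counting interval is given. The intron kept in CENPT-218 spans chr16:67830089-67830389 (hg38, minus strand), 301 bases with 56.5% G and C, and its ends are shown with the splice-site letters in capitals because they mark where the spliced and the retained form part.
Start of the intron: GTgagtgtgtggcactggtggcctggagcc
End of the intron: tccggcctgtattctctccccttcactcAG

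CENPT counts were higher in both Doxy(+) libraries at each of the 7 regions of annotated starts. The 6 transcripts that begin at the distal promoter shown above summed to 26.7 and 93.0 counts in Doxy(-) and to 226 and 211 counts in Doxy(+). CENPT-217, which begins beside NUTF2, had 0.914 and 3.81 counts against 85.5 and 61.4 counts. CENPT-220, which begins beside THAP11 on the other strand and has 383 exon bases of its own, had 4.98 and 5.02 counts against 86.1 and 90.0 counts, with little spread in either group. The 6 transcripts whose first exon is antisense to THAP11 had 7.35 and 3.59 counts against 28.3 and 36.6 counts. The 16 transcripts that begin near the exon with the start codon carried the largest counts, 339 and 317 against 1362 and 1155, and the 3 that begin further downstream had 39.9 and 58.4 against 117 and 71.8.

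**Figure D3:**
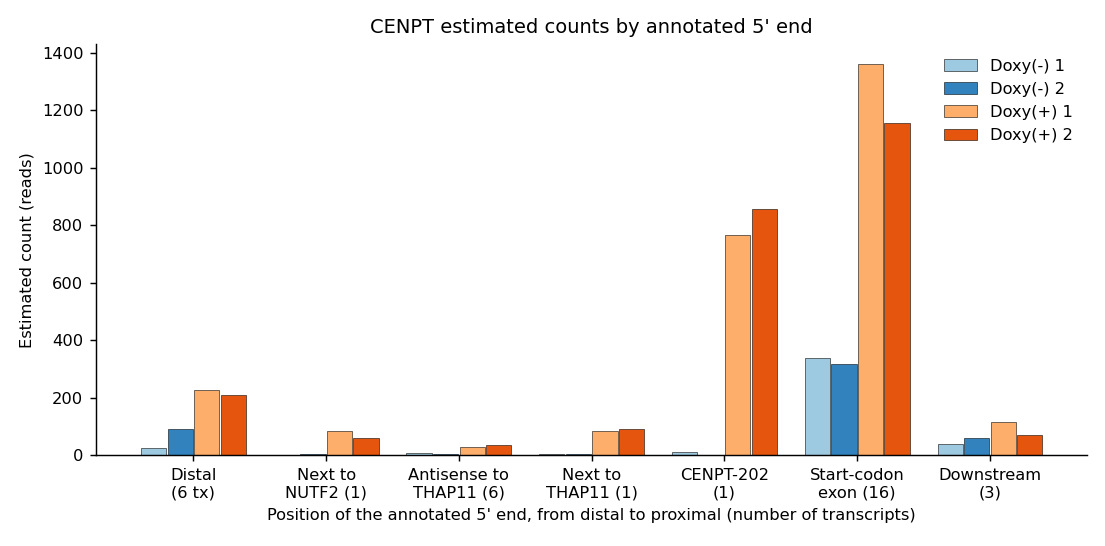
Bars give the estimated count of CENPT in each library, summed over transcripts that share a region of annotated starts, ordered from the most distal to the most downstream region; the number of transcripts is in parentheses. In all 7 regions both Doxy(+) bars are higher than both Doxy(-) bars, from 39.9 and 58.4 against 117 and 71.8 counts downstream to 11.7 and 0 against 767 and 856 counts for CENPT-202.

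CENPT shares exon positions with 3 genes on the opposite strand: 596 bases with TSNAXIP1, 380 with THAP11 and 166 with NUTF2. The library kit marks strand, but whether the counting used it is not given in the sources used here. TSNAXIP1 had 14 and 10 counts in Doxy(-), and 12 in each Doxy(+) library, with a log2 fold change of 0.06 (adjusted p = 0.943, edgeR). THAP11, a zinc-finger transcription factor, was at 28.2 and 26.3 CPM against 28.6 and 25.3 CPM (log2 fold change -0.02, adjusted p = 0.930). NUTF2, which carries Ran into the nucleus, was at 128 and 130 CPM against 138 and 135 CPM (log2 fold change 0.08, adjusted p = 0.215). None of the 3 passed, beside 19.4% of all genes tested. Only for NUTF2 did the groups not overlap, beside 61.2% of all genes tested, so nothing is read from that. The 10 CENPT transcripts that overlap no exon of another gene summed to 72.2 and 105 counts in Doxy(-) and 485 and 435 counts in Doxy(+), a log2 fold change of 2.45. Of 10 neighbouring genes, 8 were expressed enough to be tested and none was called, beside 1.97% of all genes tested. LCAT, named after its values were seen, was the only one of the 8 to pass the p limit, beside 19.4% of all genes. It was at 11.9 and 10.3 CPM against 6.60 and 7.97 CPM (log2 fold change -0.60, SE 0.159, adjusted p = 0.0469, edgeR), and it lost that under 6 alternatives. With 8 genes, these numbers cannot be told from those shares.

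The partners of CENPT in the histone-fold particle were compared next. CENPW, the subunit that pairs directly with CENP-T, was at 33.2 and 31.4 CPM in Doxy(-), against 38.1 and 29.6 CPM in Doxy(+), so the Doxy(+) libraries lay on either side of Doxy(-). Its log2 fold change was 0.07 (SE 0.123, adjusted p = 0.747, edgeR). CENPS and CENPX, which also act with FANCM in the repair of stalled replication forks, did not pass either. CENPS was at 11.6 and 13.1 CPM against 11.1 and 10.8 CPM (log2 fold change -0.17, SE 0.119, adjusted p = 0.364). CENPX was at 22.0 and 23.1 CPM against 26.3 and 22.8 CPM (log2 fold change 0.12, SE 0.0989, adjusted p = 0.440). FANCM and FAAP24, their partners in the Fanconi pathway, had log2 fold changes of 0.06 (adjusted p = 0.799) and -0.20 (adjusted p = 0.535). The exons of CENPS share 1136 bases with the read-through gene CENPS-CORT on the same strand, and those of CENPX 43 bases with LRRC45, so reads there could be divided.

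CENPC, the other long bridge from the CENP-A nucleosome to the outer kinetochore, was at 18.2 and 21.0 CPM in Doxy(-), against 15.7 and 19.9 CPM in Doxy(+), and the groups overlapped (log2 fold change -0.14, SE 0.143, adjusted p = 0.550). CENPN, which reads the CENP-A nucleosome, was at 60.3 and 51.5 CPM against 53.3 and 55.3 CPM (log2 fold change -0.04, SE 0.0847, adjusted p = 0.784). Its exons share 240 bases with CMC2 on the opposite strand and 716 bases with ENSG00000261061 on the same strand. They also share 261 bases with ENSG00000284512, 168 with CENPN-AS1 and 161 with ENSG00000286221, all on the opposite strand. Of these genes, only CMC2 was among the gene symbols with counts here.

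CENPH, CENPI, CENPK and CENPM form a 4-subunit complex that binds CENP-C and is needed for CENP-T to settle at the centromere. CENPI was at 51.0 and 52.5 CPM in Doxy(-), against 42.0 and 37.3 CPM in Doxy(+), both Doxy(+) libraries being lower. CENPI fell by 0.39 on the log2 scale (SE 0.0729, adjusted p = 0.0159, edgeR), and it was the only partner to pass the p limit, though not the limit on size. That pass was lost with length-scaled counts (log2 fold change -0.26, adjusted p = 0.131, edgeR) and on log2(TPM + 1) with limma (-0.22, adjusted p = 0.191). Without Doxy(+) 2, the log2 fold change of CENPI was -0.30. CENPK was at 24.7 and 25.8 CPM against 19.6 and 22.1 CPM, without overlap, but did not pass (log2 fold change -0.27, SE 0.0928, adjusted p = 0.0958). CENPH was at 16.4 and 15.9 CPM against 13.5 and 16.6 CPM (log2 fold change -0.10, SE 0.126, adjusted p = 0.637), and CENPM at 34.4 and 30.96 CPM against 33.9 and 33.7 CPM (log2 fold change 0.05, SE 0.0762, adjusted p = 0.692).

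Of the 9 partners, 1 passed an adjusted p of 0.05, beside 19.4% of all genes tested (9.81% higher and 9.59% lower), and none was called. Their log2 fold changes ran from -0.39 to 0.12 with a median of -0.10, beside a median of 0.001 over all genes tested. CPM ranges did not overlap between groups in 3 of 9 partners, CENPS, CENPI and CENPK, all lower in Doxy(+), beside 61.2% of all genes tested in either direction, or 4065 of 13542 lower in Doxy(+). The partners' transcripts also varied between libraries of a group: 39 of 71 had a mean of at least 10 counts, and 18 of these 39 differed by over 2-fold within a group. In those 39, both Doxy(+) counts were above both Doxy(-) counts in 5, below in 4 and overlapping in 30. These counts are not scaled to library size, and the share over all transcripts was not computed, so nothing is read from these numbers. CENPM had a transcript in each direction, both chosen after their values were seen: CENPM-201, its MANE Select transcript, was assigned 395 and 403 counts against 328 and 360 counts, while CENPM-203 was assigned 35.7 and 14.5 counts against 88.7 and 70.5 counts.

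Levels were then compared between the genes, per transcript length, in TPM. In Doxy(-), CENPW was the most abundant of the 10 at 92.7 ± 2.83 TPM, followed by CENPN at 82.2 ± 7.48 TPM and CENPM at 55.0 ± 3.73 TPM (SD, n = 2). CENPX at 50.9 ± 2.75 TPM overlapped CENPM above it and CENPK below it, at 45.9 ± 4.53 TPM. CENPT came at rank 6 in both libraries with 33.4 ± 3.29 TPM, overlapping CENPI at 31.5 ± 1.64 TPM. CENPS at 24.8 ± 1.10 TPM, CENPH at 20.3 ± 0.0530 TPM and CENPC at 9.60 ± 0.161 TPM followed without overlap.

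In Doxy(+), CENPT was at rank 1 in both libraries, with 240 and 207 TPM, a mean of 224 ± 23.0 TPM. CENPW at 101 ± 19.8 TPM and CENPN at 87.7 ± 4.47 TPM came next and overlapped each other, as did CENPM at 58.2 ± 0.446 TPM and CENPX at 57.8 ± 5.56 TPM. CENPK was at 37.7 ± 1.69 TPM and CENPI at 27.0 ± 0.220 TPM. CENPH at 22.2 ± 2.12 TPM and CENPS at 21.6 ± 1.71 TPM overlapped, and CENPC was again lowest at 8.80 ± 1.86 TPM. Rank 1 for CENPT rests on the sum over all its annotated transcripts. Its protein-coding class alone was at 74.4 and 74.7 TPM in Doxy(+), below the summed CENPW and CENPN in both libraries. That value rests on the quantifier's division of reads.

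The ratio of CENPT to CENPW, which pair in the protein complex, came to 0.328 and 0.394 in the Doxy(-) libraries and to 2.09 and 2.38 in the Doxy(+) libraries, in TPM over TPM. CENPT RNA was thus below CENPW RNA in both Doxy(-) libraries and above it in both Doxy(+) libraries. No test was made on the ratios, because CENPT enters each of them and because 2 against 2 libraries cannot reach p = 0.05 by permutation. The ratio depended on which transcripts were counted. With only the CENPT transcripts annotated with the full coding sequence, it came to 0.0065 and 0.0175 in Doxy(-), then 0.364 and 0.515 in Doxy(+), under 1 in every library. Those values rest on the quantifier's division of reads between transcripts, whose error is not known. The ratio to CENPX went from 0.635 and 0.676 in Doxy(-) to 3.88 and 3.85 in Doxy(+), and the ratio to CENPC, the other bridge, 3.27 and 3.68 against 32.0 and 20.5. Without CENPT, the ratio of CENPS to CENPX went from 0.492 and 0.485 in Doxy(-) to 0.331 and 0.424 in Doxy(+), a far smaller range.

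**Figure D4:**
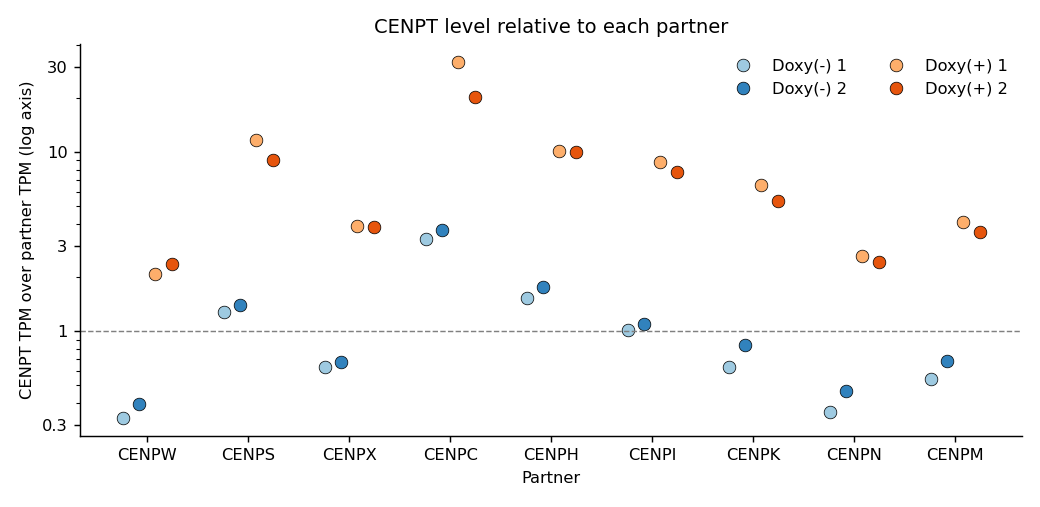
Points give the TPM of CENPT divided by the TPM of each of the 9 partners, 1 point per library, on a log axis, with a dashed line at 1. For CENPW, CENPX, CENPK, CENPN and CENPM the Doxy(-) points are below 1 and the Doxy(+) points above it, from 0.328 to 2.38 for CENPW.

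The 5 genes whose profile over the 4 libraries was nearest to that of CENPT were named by the distance between log2 CPM values, each centred on its own mean, among the other 9607 genes whose mean was 10 CPM or more. They were UAP1L1 (distance 0.11), GPNMB (0.184), TFE3 (0.234), CLCN5 (0.367) and C21orf91 (0.493). GPNMB, a transmembrane glycoprotein, was at 49.03 and 43.6 CPM in Doxy(-), against 254 and 248 CPM in Doxy(+). UAP1L1 was at 5.59 and 5.65 CPM against 35.7 and 34.3 CPM, and CLCN5, a chloride-proton exchanger of endosomes, at 5.51 and 6.80 CPM against 30.99 and 28.9 CPM. With 4 libraries, the likeness is in the step between groups and little else.

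Finally, the 10 genes were set beside the rest of the kinetochore. Of the 6 other subunits of the inner network, CENPO passed, at 84.2 and 84.0 CPM in Doxy(-), against 65.4 and 67.4 CPM in Doxy(+). CENPO fell by 0.34 on the log2 scale (SE 0.0494, adjusted p = 0.00621, edgeR), but not beyond the limit without Doxy(+) 1 (adjusted p = 0.0582) or on log2(TPM + 1) (adjusted p = 0.110). CENPL, the partner of CENP-N, was at -0.13 on the log2 scale (adjusted p = 0.363). CENPP, CENPQ, CENPU and ITGB3BP, which belong to the same subcomplex as CENP-O, had log2 fold changes of 0.23 (adjusted p = 0.352), -0.09 (0.587), -0.07 (0.631) and 0.03 (0.855), and did not pass.

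Among 5 genes of the CENP-A nucleosome and its deposition, HJURP, the CENP-A chaperone, fell by 0.63 on the log2 scale, from 104 and 108 CPM to 68.0 and 68.9 CPM (SE 0.0487, adjusted p = 0.000711), the only gene of the 5 to pass. Of 10 outer kinetochore genes, 9 had a negative log2 fold change and 5 of them passed the p limit. Among these 5 were NUF2, which fell by 0.62 (SE 0.0941, adjusted p = 0.00713, edgeR), and NDC80, by 0.44 (SE 0.0730, adjusted p = 0.0101). Both encode subunits of the microtubule-binding complex that CENP-T recruits. On log2(TPM + 1) neither of them passed (adjusted p = 0.0583 and 0.0573), and NDC80 did not without Doxy(+) 1 (adjusted p = 0.0640). SPC24, named after its values were seen, was another of the 5 and lost its pass in 11 of 13 alternatives. Of 15 corona, checkpoint and chromosomal passenger genes, 14 had a negative log2 fold change and 12 of them passed. BIRC5 fell by 0.49 (adjusted p = 0.00206, edgeR) and CDCA8 by 0.45 (adjusted p = 0.00257). The background for a fall at this limit was 9.59% of all genes tested.

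The same direction was found for most genes that mark cycling cells. Of 6 such genes, 5 had a negative log2 fold change and 4 of them passed. TOP2A fell by 0.36 (adjusted p = 0.000998, edgeR) and MKI67 by 0.33 (adjusted p = 0.00207), while MCM2 rose by 0.24 (adjusted p = 0.00444). On log2(TPM + 1) and with length-scaled counts, MKI67 (adjusted p = 0.182 and 0.0502) and MCM2 (adjusted p = 0.202 and 0.266) did not pass. Whether cycling cells had a part in the differences of the kinetochore genes was not tested. Over all 44 genes of these lists outside the 10 members, 38 had a negative and 6 a positive log2 fold change, with a median of -0.23. The p limit was passed by 23 that were lower and 1 that was higher, beside 9.59% and 9.81% of all genes tested. None was called, beside 1.97% of all genes tested. CENPT was thus at 2.57 on a scale where those 44 genes ran from -0.63 to 0.24. With the 8 tested neighbours of CENPT added, 25 genes passed, and that number was 7 on log2(TPM + 1), 10 with length-scaled counts, 10 without Doxy(+) 1 and 15 without Doxy(+) 2.

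**Figure D5:**
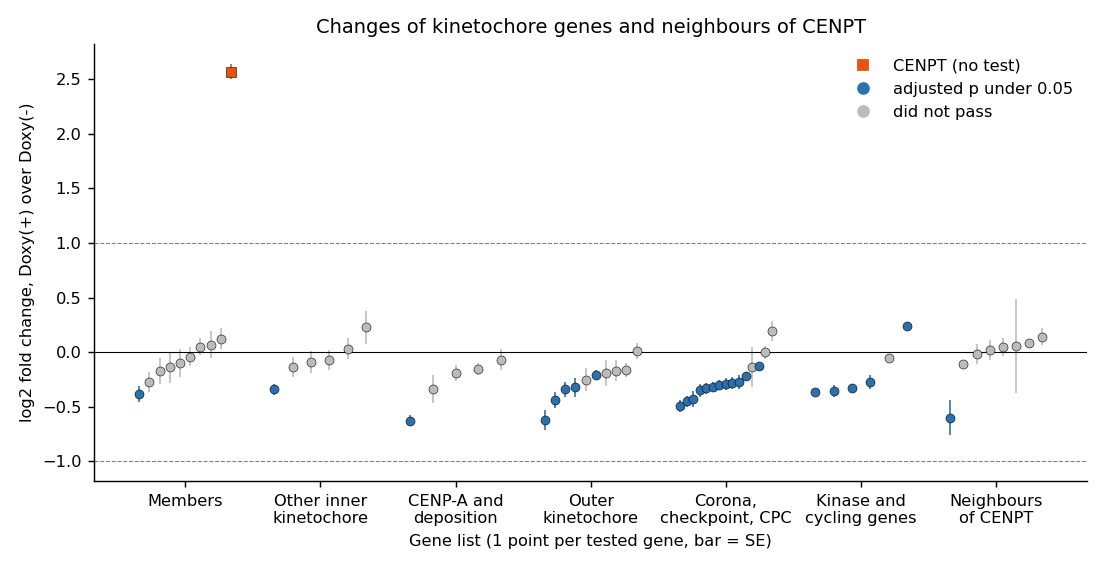
Each point is the edgeR log2 fold change of 1 tested gene, Doxy(+) over Doxy(-), with its SE as a bar, by gene list; blue points had an adjusted p under 0.05, grey points did not, and dashed lines mark a size of 1. The square, CENPT at 2.57, is the only point beyond the dashed lines; HJURP, the lowest, is at -0.63.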

How the data were processed

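The authors sequenced 2 Doxy(-) and 2 Doxy(+) libraries of HK-2 cells. The submitters' processing notes name Trim Galore 0.6.6, cutadapt 2.5, STAR 2.7.9a and hg38, and the study's methods name RSEM with an hg38 annotation from UCSC, but the deposited tables have the columns that kallisto writes. The version of the tool that wrote such columns, the Ensembl release of the identifiers and the strand setting are not given in the sources used here. The deposited estimated counts are expected counts per transcript, not normalized, since the authors' quantifier divides a read among the transcripts that it matches. The deposited TPM values were scaled for length by the authors' quantifier.

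Of 180253 transcript identifiers, 150691 (83.6%) matched GENCODE release 44, and counts were summed per gene symbol. The unmatched ones, with 9.66% to 9.89% of each library's count, were left out. Of 35 annotated CENPT transcripts, 34 were in the tables. The sums, rounded to whole numbers, were tested in R 4.3.3 with edgeR 4.0.16 (glmQLFit and glmQLFTest, TMM, filterByExpr, group as the only term), with Benjamini-Hochberg adjustment over 13542 genes. Calls needed an adjusted p under 0.05 and a log2 fold change beyond 1 in either direction. CPM are TMM-scaled, and 3 counts came to 0.204 to 0.233 CPM, which limits counting error only. The common biological coefficient of variation was 6.47%. Replicates differed beyond counting noise (chi-square 4.21 and 2.97 per degree of freedom). Alternatives used RLE, other filters, DESeq2 1.42.0, limma 3.58.1 on log2(TPM + 1) and log2(TPM + 0.1), length-scaled counts, added copies, a replicate block, stricter or looser limits, subsets of CENPT transcripts, and each library left out. The scripts were tested on simulated data.

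The genes named are the 10 members, TFE3, PRCC, the other inner network subunits, genes whose exons overlap CENPT, called neighbours, the 2 members of each other list with the smallest p, and the 5 nearest profiles; MCM2, SPC24 and LCAT were added after their values were seen. Results of some genes and sequences chosen by these rules are not reported here. Members and lists were chosen with earlier results of these data known.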

Additional observations from a re-analysis of the deposited data

How the results depend on the processing

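Over 30 alternatives the log2 fold change of CENPT, 2.57, ran from 0.92 to 3.09, positive in each, and moved by more than the spread between replicates (0.0848) in 9. It was 2.71 on log2(TPM + 1), 2.74 on log2(TPM + 0.1), 2.702 with length-scaled counts, 2.45 with only the transcripts that overlap no other gene, 3.09 without CENPT-233, 2.66 without CENPT-227 and 2.04 without CENPT-202. Summed with TSNAXIP1, THAP11 and NUTF2, whose own counts dilute it, it was 0.92. Leaving out 1 library gave 2.48 to 2.65. Of the 10 members, 1 was called, beside 1.97% of all genes tested, against 2 with no fold change limit, beside 19.4%. The 1 called was CENPT, which was chosen for this contrast, so nothing is read from these numbers. Of the 9 partners, 1 passed, against 0 on log2(TPM + 1), on log2(TPM + 0.1) and with length-scaled counts, and 0 to 1 when 1 library was left out. Of the kinetochore and neighbour genes 25 passed, against 7 on both TPM scales, 10 with length-scaled counts, 14 at an adjusted p under 0.01 and 10 to 23 when 1 library was left out. The mean ratio of CENPT to CENPW was 0.361 in Doxy(-) and 2.24 in Doxy(+) in TPM, against 1.02 and 5.84 in CPM and 0.0682 and 0.753 with only protein-coding CENPT transcripts. Genes called numbered 267, 203 higher and 64 lower, against 151 on log2(TPM + 1), with 118 higher and 33 lower, 172 on log2(TPM + 0.1), with 36 lower, 161 at an adjusted p under 0.01, with 127 higher and 34 lower, 2627 with no fold change limit, and 99 lower without a low-count filter. The cause of these shifts was not tested.

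The replicate numbers do not mark a shared culture in the labels, and same-numbered libraries did not deviate together (correlation -0.00915). With the number as a replicate block, 271 genes, 1 member and 1 partner passed their limits, 22 kinetochore and neighbour genes passed, and the CENPT log2 fold change was 2.56. The reads behind the partners, 143 to 777 counts per library, limit how small a difference could be detected.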
